A study of Mus musculus with 36 samples.

Results

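The extracellular matrix genes described here are 37 genes that fibroblasts transcribe to build, cross-link and remodel the material around them. They were chosen by name and comprise 5 fibrillar collagen genes, 7 other collagen genes, 5 elastic fibre genes, 10 genes for glycoproteins and proteoglycans, 4 cross-linking enzyme genes and 6 genes for matrix proteases and their inhibitors. All 37 were found among the 49585 genes of each deposited table, and all 37 passed the filter on low counts that left 13364 genes in the main fits.

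Messenger RNA was measured in mouse embryonic fibroblasts (MEF), mesenchymal cells grown from embryos, which carried a knock-in mutation (N129D) in both, 1 or none of their copies of Tbk1, the gene of a kinase that acts in antiviral signalling and in selective autophagy. Homozygous (hom) cells came as E1.4, E2.2 and also E2.9, heterozygous (het) cells as E1.3, E2.5, E2.8 and the line E2.6, and wild-type (WT) cells as E1.5, E2.1 and also E2.7, each name being a line, and every line was sequenced after 4 h of antimycin and oligomycin (AO), after 4 h of pI:pC, and untreated. Antimycin and oligomycin block mitochondrial respiration and ATP synthesis, and pI:pC is a synthetic double-stranded RNA. Line E1.5 also gave 6 libraries at a high and a low cell density, with 1 library for each density and treatment. All cells were grown in DMEM, and each line is taken here as 1 replicate. The design text speaks of replicates in fours, a number that the het groups have, whereas hom and WT groups have 3 lines each. A count per gene cannot show a point mutation, so the counts do not check the genotype labels.

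Fibrillar collagens form the ropes of the matrix. Their chains are hydroxylated and folded in the endoplasmic reticulum, trimmed outside the cell and tied together by lysyl oxidases. Type IV and type VI collagens form sheets and beaded filaments, fibrillins and elastin form elastic fibres, and fibronectin, tenascin and thrombospondins link fibres to receptors on the cell surface. Metalloproteases such as MMP14 and MMP2 cut these proteins, and TIMP proteins hold the proteases in check. Fibroblasts are the main source of this material in connective tissue.

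Depth in the 30 libraries without a density label ran between 3689177 and 14879261 counts, with 16474077 to 22756901 counts at high and 5391426 to 6308011 counts at low density. None of 8 fibroblast marker genes had a median under 1 CPM, the unit of counts scaled to a common library size. Of the other lists, 8 of 10 macrophage, 3 of 8 chondrocyte, 1 of 6 smooth muscle and 1 of 5 epithelial markers did. So did 3 of 5 endothelial, 5 of 5 skeletal myoblast and 6 of 6 erythroid markers. Untreated, smooth muscle markers summed to 1763 to 4750 CPM, fibroblast markers to 2266 to 4864 CPM, and epithelial markers to 102.6 CPM in line E2.5. Line E2.9 stood apart with 130 to 223 CPM of summed macrophage markers and line E2.6 with 31.5 to 49.0 CPM, against 2.54 to 9.74 CPM in the other 8 lines. Over all genes, the change of line E2.6 had a slope of 0.615 on the mean change of the other lines under AO and of 0.57 under pI:pC. The other 9 lines had slopes of 0.852 to 1.07 under AO, and of 0.725 to 1.18 under pI:pC except E1.4, at 0.351.

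Promoter sequences are shown for the 3 fibrillar collagen genes with the strongest fall under AO that have an entry in the RefSeq promoter table of build GRCm38.p6, and for Mmp3, the member with the largest rise under pI:pC when lines are compared with themselves. All printed coordinates are on the plus strand. The 200 bases before the RefSeq start site are printed 5′ to 3′, and capitals mark each match on either strand to the CCAAT box (CCAAT), to a TATA box motif (TATAAA) or to an AP-1 type motif (TGANTCA).

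Col3a1 chr1:45311338-45311537: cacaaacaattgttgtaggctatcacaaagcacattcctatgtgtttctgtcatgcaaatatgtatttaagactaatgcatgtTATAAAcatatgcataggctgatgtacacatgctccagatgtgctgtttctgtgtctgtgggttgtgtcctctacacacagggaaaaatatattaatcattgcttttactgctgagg
Col1a2 chr6:4505418-4505617: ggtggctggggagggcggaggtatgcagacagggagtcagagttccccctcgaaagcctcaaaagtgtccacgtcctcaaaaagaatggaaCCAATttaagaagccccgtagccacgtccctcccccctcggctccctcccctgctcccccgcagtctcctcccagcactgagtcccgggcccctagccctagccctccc
Col5a1 chr2:27886225-27886424: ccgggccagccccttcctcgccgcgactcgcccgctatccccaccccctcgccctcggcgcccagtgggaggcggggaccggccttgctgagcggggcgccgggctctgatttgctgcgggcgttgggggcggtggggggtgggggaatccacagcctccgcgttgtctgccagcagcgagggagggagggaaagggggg
Mmp3 chr9:7445622-7445821: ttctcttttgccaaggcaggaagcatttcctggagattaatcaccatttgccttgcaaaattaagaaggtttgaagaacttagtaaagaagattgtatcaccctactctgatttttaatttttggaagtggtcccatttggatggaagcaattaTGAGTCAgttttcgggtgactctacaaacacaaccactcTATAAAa

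Col3a1 held TATAAA 117 bases before its start, Col1a2 held CCAAT at 109 bases, and Col5a1 held none of the 3 marked motifs. Mmp3 held TGAGTCA at 46 bases and TATAAA at 7 bases before its start. Of the 23 members with an entry, 9 held CCAAT, 5 held TATAAA, 2 (Col6a1 and Mmp3) held TGANTCA and 15 held GGGCGG, the GC box, which is not capitalised. Over all 32851 windows of the table the shares were 29.3% for CCAAT, 9.96% for TATAAA, 5.48% for TGANTCA and 31% for GGGCGG. These are shares of windows, whereas a member counted if any of its windows matched. Postn, Tnc, Col6a2 and Fbln5 have additional windows, so the counts and the shares are not directly comparable. Col4a1 and Col4a2, the genes of the main type IV collagen chains, run in opposite directions on chromosome 8, and their annotated starts lie 21 bases apart. The stretch that both genes share at their 5′ ends is shown because the pair varied together across lines, as described further on.

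Col4a1-Col4a2 chr8:11312805-11312826: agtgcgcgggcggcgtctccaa

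Levels per length, taken over all annotated exons of a gene merged, placed fibronectin first. Merged exons can be longer than the transcripts that a cell makes, so the ranks depend on the annotation. Untreated cells had a median over 10 lines of 489 CPM per kilobase of exon for Fn1, the gene of fibronectin, and 408 for Sparc, which encodes a collagen-binding protein. Col1a1, the gene of the main chain of type I collagen, followed at 311, Thbs1, the gene of thrombospondin 1, at 206.5, and Bgn, the gene of the proteoglycan biglycan, at 205. The range over lines was 380.3 to 553 for Fn1, 369.7 to 592 for Sparc, 177 to 398 for Col1a1, 136 to 863 for Thbs1 and 174 to 263 for Bgn, so these neighbours in rank overlapped. At the other end stood Mmp3 at 2.84, Dcn at 2.3, Eln at 0.545 and Lum at 0.239 CPM per kilobase. Those 4 genes encode stromelysin, decorin, elastin and lumican, and all but Mmp3 encode structural parts of mature matrix.

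The first comparison was AO against untreated cells, averaged over the 3 genotypes. Fibrillar collagens led the fall. In the fit that takes the libraries as independent, 8 of 37 members fell and none rose at a Benjamini-Hochberg adjusted p under 0.05 in edgeR's quasi-likelihood test, which is 21.6% of members, against 16.7% of all 13364 genes called lower and 17% called higher. With the line as a block, which compares the treated and untreated libraries of the same line, 26 members fell and none rose, which is 70.3% of members, against 26.8% of all genes lower and 23.6% higher. The median log2 change of the members was -0.29, and that of all genes tested was -0.02.

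**Figure D1:**
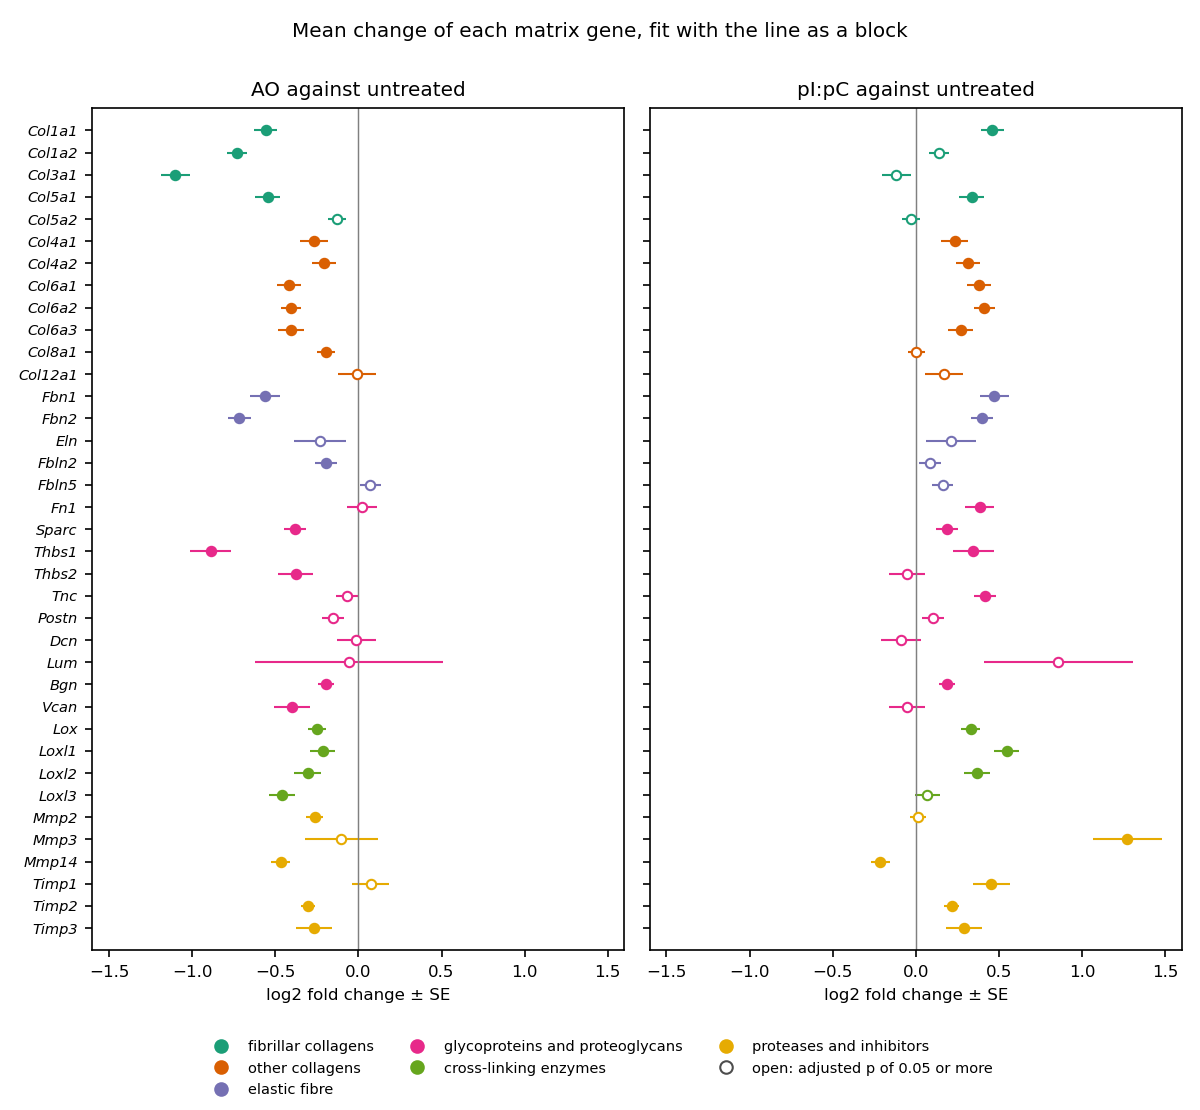
Mean log2 fold change with its SE for each of the 37 matrix genes, under AO against untreated cells on the left and under pI:pC against untreated cells on the right, from the fit with the line as a block. Colours stand for the 6 roles, and filled points passed at an adjusted p under 0.05: 26 members were lower under AO and none higher, while 21 were higher and 1 lower under pI:pC.

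Among the fibrillar collagens, 4 of 5 fell in both fits. Col3a1, the gene of the type III chain that makes fine fibres of young connective tissue, had 129.2, 297 and 413 CPM as the lowest, median and highest of 10 lines under AO, against 363, 593 and 1074 CPM in untreated cells. It was lower under AO in 10 of 10 lines, by 0.34 (E2.6) to 1.49 (E1.5) on the log2 scale, although the ranges of the treatments overlapped. Its log2 fold change was -1.09 ± 0.21 (SE, edgeR adjusted p 0.0003057), the largest among the members that passed without the block. Col1a2, the gene of the second chain of type I collagen, had 635.8, 1018 and 1375 CPM under AO, against 1080, 1470 and 2279 CPM in untreated cells. It changed by -0.71 ± 0.15 (edgeR adjusted p 0.0007707) and was lower in 10 of 10 lines. Col1a1 had 778, 1365 and 1865 CPM under AO and 1164, 2041 and 2613 CPM in untreated cells, with a change of -0.55 ± 0.17 (edgeR adjusted p 0.013). Col5a1, the gene of a type V chain that sets fibre width, had 214, 497 and 764 CPM under AO and 435, 688 and 848 CPM in untreated cells, with a change of -0.51 ± 0.19 (edgeR adjusted p 0.0422). Both were lower under AO in all 10 lines. Col5a2, the gene of the other main type V chain, passed in neither fit, with -0.13 ± 0.05 in the blocked fit (edgeR adjusted p 0.0581) and a lower value in 9 of 10 lines.

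**Figure D2:**
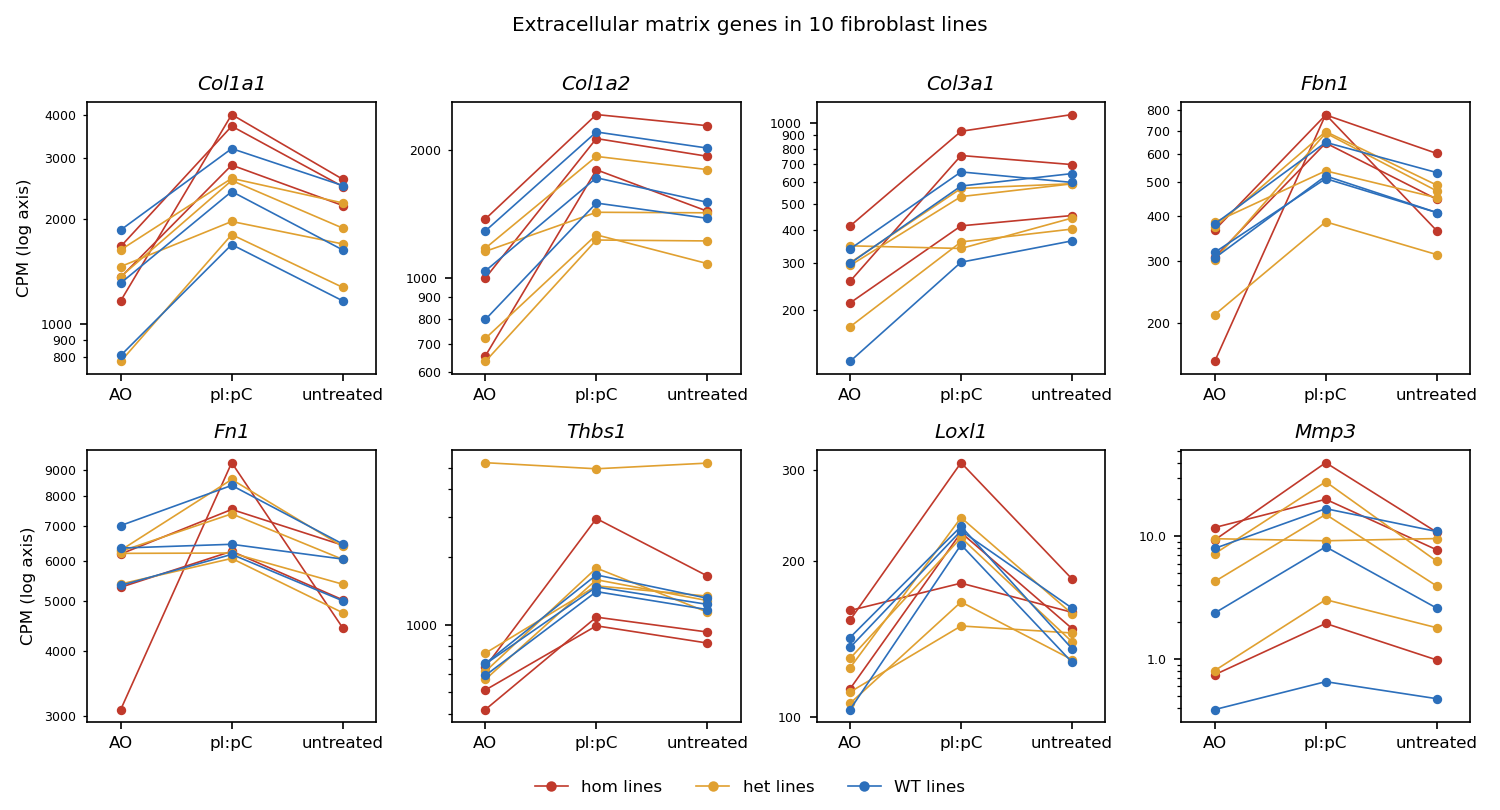
CPM on a log axis for 8 matrix genes under AO, under pI:pC and in untreated cells, with 1 point per library and a line joining the libraries of each of the 10 MEF lines, coloured by genotype. Col3a1 was lower under AO than untreated in 10 of 10 lines, and the het line at the top of the Thbs1 panel is E2.6, with 5264 CPM under AO, 4945 CPM under pI:pC and 5242 CPM untreated.

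The other collagens passed only with the block, where 6 of 7 fell. Col6a1, Col6a2 and Col6a3, the genes of the 3 chains of beaded type VI collagen, changed by -0.42 ± 0.07, -0.40 ± 0.06 and -0.41 ± 0.08 (SE; edgeR adjusted p with the block 9.656e-05, 1.7e-05 and 0.00018) and were lower under AO in 10 of 10 lines each. Col6a1 had 83.4, 338 and 456 CPM under AO, against 163, 387 and 526 CPM in untreated cells. Col4a1 changed by -0.27 ± 0.08, Col4a2 by -0.21 ± 0.07 and Col8a1, the gene of a short-chain collagen, by -0.20 ± 0.05 in the same fit. Col12a1, the gene of a collagen found on the surface of fibrils, passed in neither fit, with 119, 827.5 and 1150 CPM under AO and 175, 869.8 and 1045 CPM in untreated cells.

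Fibrillin genes made up most of the change among the elastic fibre genes. Fbn1, the gene of the microfibril protein fibrillin 1, had 155, 311 and 385 CPM under AO, against 312, 450 and 604 CPM in untreated cells, and changed by -0.55 ± 0.15 (edgeR adjusted p 0.0053). Fbn2, the gene of the fibrillin of embryonic tissue, had 34.1, 48.1 and 139 CPM under AO and 48.4, 81.6 and 214.5 CPM in untreated cells. Lines differed widely in Fbn2, and the unblocked fit gave -0.73 ± 0.38 (edgeR adjusted p 0.152), whereas the blocked fit gave -0.72 ± 0.07 (edgeR adjusted p 3.697e-08). Fbln2, the gene of fibulin 2, changed by -0.20 ± 0.07 with the block, while Eln and Fbln5, the genes of elastin and fibulin 5, passed in neither fit.

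Glycoprotein and proteoglycan genes divided. Sparc had 988.5, 1231 and 1800 CPM under AO, against 1400, 1545 and 2241 CPM in untreated cells, and changed by -0.38 ± 0.10 (edgeR adjusted p 0.00546). Thbs1 had 418, 633 and 5264 CPM under AO and 827, 1254 and 5242 CPM in untreated cells. The highest value in each is line E2.6, whose Thbs1 did not move with AO, and the other 9 lines had 418 to 746 CPM under AO, against 827 to 1646 CPM untreated, with no overlap. Thbs1 changed by -0.79 ± 0.38 in the unblocked fit (edgeR adjusted p 0.118) and by -0.89 ± 0.12 with the block (edgeR adjusted p 5.325e-06). Vcan had 51.8, 144 and 209 CPM under AO and 99.3, 188 and 234 CPM in untreated cells. Vcan, Thbs2 and Bgn, the genes of versican, thrombospondin 2 and biglycan, fell with the block by 0.40, 0.38 and 0.19 on the log2 scale. Fn1 did not pass, at 3087, 6186 and 7013 CPM under AO and 4444, 5715 and 6460 CPM in untreated cells. Tnc and Postn, the genes of tenascin C and periostin, and the low genes Dcn and Lum passed in neither fit.

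All 4 cross-linking enzyme genes fell with the block, and 1 without it. Lysyl oxidases oxidise lysines of collagen and elastin so that chains bond to each other. Loxl3 changed by -0.44 ± 0.16 without the block (edgeR adjusted p 0.0391) and was lower under AO in 10 of 10 lines. Loxl2 changed by -0.31 ± 0.08, Lox by -0.25 ± 0.06 and Loxl1 by -0.21 ± 0.08 with the block. The call for Loxl1 and that for Col4a2 were lost without line E1.5, and that for Timp3 was lost without any 1 of lines E1.3, E1.5, E2.1, E2.5, E2.7 or E2.8.

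Among proteases and inhibitors, the membrane-bound collagenase Mmp14 changed most. Mmp14 had 199, 246 and 378 CPM under AO, against 306, 331 and 424 CPM in untreated cells, and changed by -0.46 ± 0.10 (edgeR adjusted p 0.0009263), lower in 10 of 10 lines. With the block Timp2 changed by -0.30 ± 0.04, Timp3 by -0.27 ± 0.11 and Mmp2, the gene of gelatinase A, by -0.26 ± 0.05. Timp1 and Mmp3 passed in neither fit. Without reference to any fit, 18 members were lower under AO than untreated in all 10 lines, against 16.4% of all genes.

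Markers of cell type moved with AO as well. The summed level of 8 fibroblast markers, none of them a member, was 1774 to 4234 CPM (median 2065) under AO and 2266 to 4864 CPM (median 2757) in untreated cells, and it was lower under AO in 9 of 10 lines. For 6 smooth muscle markers it was 1366 to 4212 CPM (median 1960) under AO and 1763 to 4750 CPM (median 2484) untreated, and for 8 chondrocyte markers 46.2 to 189 CPM (median 84.1) under AO and 56.4 to 229 CPM (median 122) untreated, both lower in 10 of 10 lines. The sum of 5 endothelial markers went the other way, with 11.8 to 35.5 CPM (median 16.5) under AO and 4.03 to 22.6 CPM (median 6.43) untreated, higher in 10 of 10 lines. Kdr, a receptor of vascular growth factors, carried that sum, at a median of 15.1 CPM under AO and 4.96 CPM untreated, while the defining endothelial markers Pecam1 and Cdh5 stayed below 1 CPM in every library. Of the sums that fell, Vim, the vimentin gene, carried that of fibroblasts, Acta2 and Tagln that of smooth muscle and Col2a1 that of chondrocytes. These 4 genes were lower under AO in 9, 10, 9 and 10 of 10 lines. Other markers of the same lists differed, with Twist2 higher in 6, Myh11 in 5 and Col11a2 in 7 of 10 lines. The part of these shifts in the member results was not tested, and in bulk RNA fewer cells of a type and less RNA per cell cannot be told apart.

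Under pI:pC more members rose than fell. This comparison shares the untreated libraries with the one for AO, so a low or high untreated value enters both. Without the block 3 of 37 members rose and none fell, which is 8.11% of members, against 9.91% of all genes called higher and 11.8% called lower. With the block 21 rose and 1 fell, so that 56.8% of members were higher, against 19.8% of all genes higher and 19.6% lower. The median log2 change of the members was 0.21 without the block, and that of all genes -0.0009. Without reference to any fit, 16 members were higher in all 10 lines, against 8.43% of all genes, and Mmp14 was lower in all 10, as were 8.01% of all genes.

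Loxl1, Fbn1 and Fn1 were the members that rose in both fits. Loxl1, a cross-linker tied to elastic fibres, had 149.9 (E2.6), 225 and 310.2 CPM under pI:pC, against 127.5, 147 and 185 CPM in untreated cells, and changed by 0.56 ± 0.10 (edgeR adjusted p 0.0003584). Fbn1 had 386, 648 and 779 CPM under pI:pC and 312, 450 and 604 CPM untreated, a change of 0.46 ± 0.15 (edgeR adjusted p 0.0283). Fn1 had 6057, 6920 and 9282 CPM under pI:pC and 4444, 5715 and 6460 CPM untreated, a change of 0.37 ± 0.11 (edgeR adjusted p 0.019). Each was higher under pI:pC in 10 of 10 lines, and each had ranges that overlapped between the treatments. Without a filter on low counts 1 member passed, and leaving out a line gave 1 (without E1.5) to 5 (without E1.4) members. Shares of all genes called in those fits are not given here, so such counts are not a result about the members.

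Mmp3, the gene of stromelysin 1, a protease that cuts many matrix proteins, rose most with the block. Its level was 0.656 (E1.5), 12.2 and 39.9 (E2.9) CPM under pI:pC, against 0.477 (E1.5), 5.12 and 10.97 (E2.1) CPM in untreated cells. The rise was 1.27 ± 0.21 (edgeR adjusted p with the block 7.915e-05), and line E2.6 alone did not rise, with 9.22 CPM under pI:pC and 9.61 CPM untreated. Timp1, the gene of an inhibitor of such proteases, had 126, 258 and 335 CPM under pI:pC, against 118, 167 and 286 CPM in untreated cells, and changed by 0.45 ± 0.11 with the block. The inhibitor genes Timp2 and Timp3 changed by 0.21 ± 0.04 and 0.29 ± 0.11 in the same fit. Mmp14 was the member that fell, by 0.21 on the log2 scale (edgeR adjusted p with the block 0.00609), with 253, 300.5 and 377 CPM under pI:pC and 306, 331 and 424 CPM untreated.

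Among collagens, Col1a1 rose by 0.46 ± 0.07 and Col5a1 by 0.34 ± 0.08 with the block, while Col1a2, Col3a1 and Col5a2 passed in neither fit. Col1a1 had 1692, 2610 and 4017 CPM under pI:pC, against 1164, 2041 and 2613 CPM in untreated cells. Col6a1, Col6a2 and Col6a3 changed by 0.38 ± 0.07, 0.41 ± 0.06 and 0.27 ± 0.08, and Col4a1 and Col4a2 by 0.23 ± 0.08 and 0.31 ± 0.07. Tnc, whose product loosens the hold of cells on fibronectin, had 1044, 1728 and 2048 CPM under pI:pC and 760.9, 1401 and 1642 CPM in untreated cells. Among glycoproteins Tnc rose by 0.42 ± 0.07, Thbs1 by 0.35 ± 0.12, and Sparc and Bgn by 0.19 ± 0.06 and 0.19 ± 0.05. Lox had 655, 1080 and 1397 CPM under pI:pC and 505.5, 866 and 1163 CPM untreated, with overlap. Fbn2 rose by 0.40 ± 0.07, Loxl2 by 0.37 ± 0.08 and Lox by 0.33 ± 0.06. The calls for Timp3, Sparc, Thbs1 and Col4a1 were lost in 7, 7, 5 and 4 of the 10 fits that left out a line. The summed fibroblast markers were 3146 to 5879 CPM (median 3413) under pI:pC and 2266 to 4864 CPM (median 2757) untreated. Vim, the gene of the intermediate filament vimentin, made up most of that sum, at a median of 2571 CPM under pI:pC and 1823 CPM untreated. Of the other fibroblast markers, Prrx1, a mesenchymal transcription factor gene, had a median of 483 CPM under pI:pC and 495 CPM untreated and was higher in 5 of 10 lines, and Pdgfra, a growth factor receptor gene, had 15.4 and 19.8 CPM and was higher in 4. Smooth muscle markers summed to a median of 3137 CPM under pI:pC and 2484 CPM untreated, higher in 8 of 10 lines. Chondrocyte markers summed to 173.5 CPM and 122 CPM, higher in 9, and endothelial markers to 8.07 CPM and 6.43 CPM, higher in 10. Col2a1, Acan and Sox9 carried the chondrocyte sum, higher in 9, 10 and 10 of 10 lines. Comp, Matn3 and Col11a2 were each lower in 7 of 10 lines, and Col9a1 and Matn1 were higher in none. Kdr carried the endothelial sum, at a median of 6.19 CPM under pI:pC and 4.96 CPM untreated. Pecam1 and Cdh5 stayed below 1 CPM in every library. The part of these shifts in the rises of the members was not tested.

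**Figure D3:**
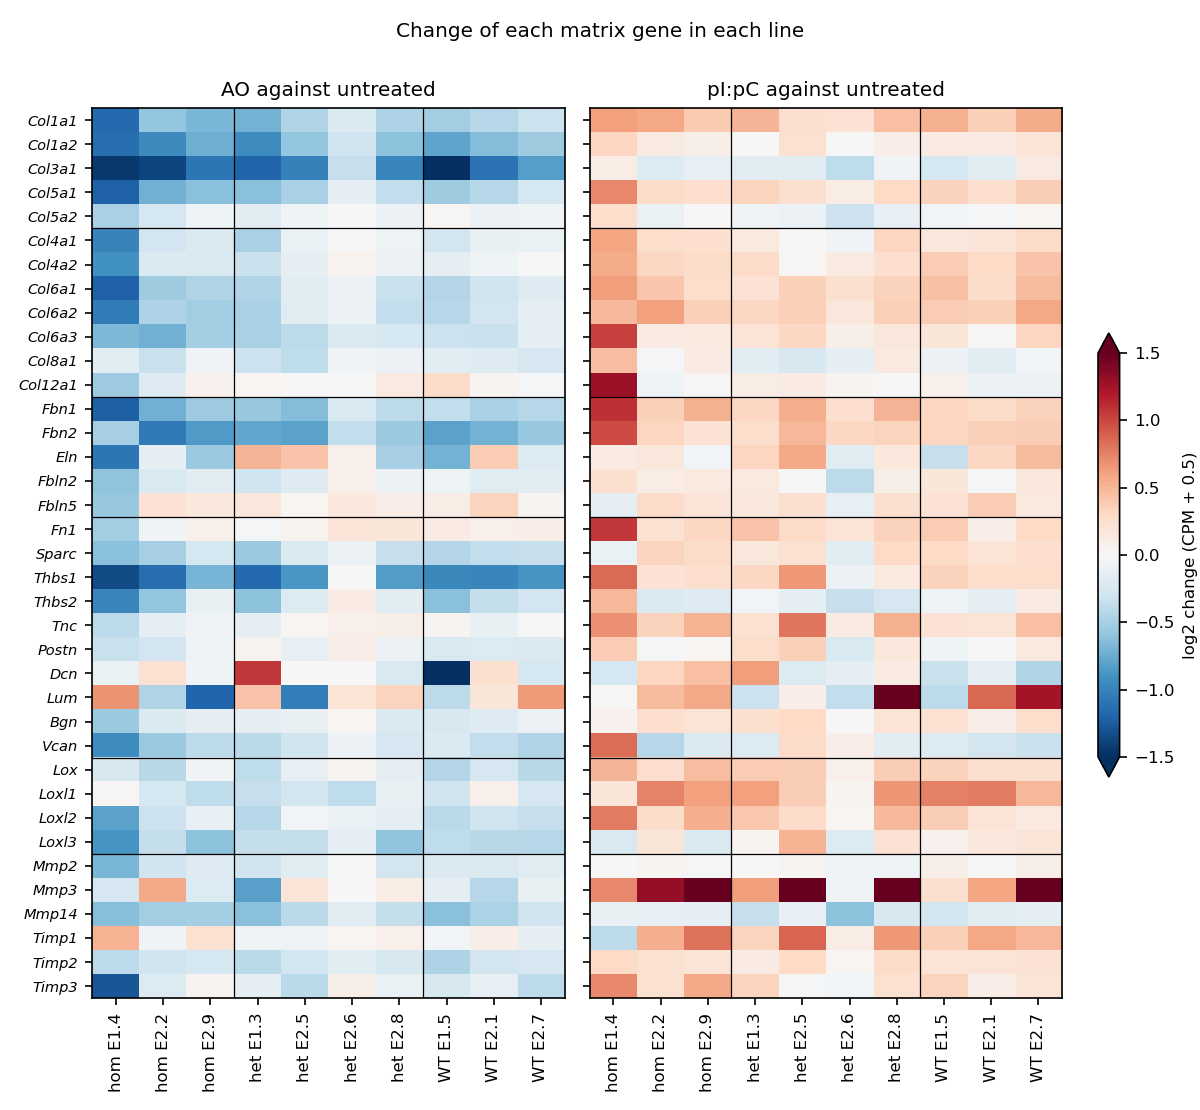
Log2 change of each matrix gene (rows, grouped by role) in each MEF line (columns, in the order hom, het, WT), under AO against untreated cells on the left and under pI:pC against untreated cells on the right. The scale is log2(CPM + 0.5), colours stop at changes of 1.5 either way, and the columns of E2.6 are palest and those of E1.4 strongest, with median member changes of -0.0036 and -0.64 under AO.

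By role and with the block, pI:pC raised 2 of 5 fibrillar collagens, 5 of 7 other collagens, 2 of 5 elastic fibre genes, 5 of 10 glycoproteins and proteoglycans, 3 of 4 cross-linking enzymes and 4 of 6 proteases and inhibitors. AO lowered 4, 6, 3, 5, 4 and 4 of the same groups in that order. With the block, Col1a1 changed by -0.56 ± 0.07 under AO and 0.46 ± 0.07 under pI:pC, Thbs1 by -0.89 ± 0.12 and 0.35 ± 0.12, and Loxl1 by -0.21 ± 0.08 and 0.55 ± 0.07, while Mmp14 changed by -0.47 ± 0.06 and -0.21 ± 0.06. Each pair of values shares the untreated libraries. Col5a2, Col12a1, Eln, Fbln5, Postn, Dcn and Lum did not pass in either comparison.

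AO was set against pI:pC directly, in the same libraries. Without the block 14 members were lower under AO, which is 37.8% of members, against 20.4% of all genes called lower. With the block 32 were lower, which is 86.5%, against 30.6% of all genes. Fbn1 differed by -1.01 ± 0.15 (edgeR adjusted p 7.151e-06), Col1a1 by -1.0 ± 0.17 (edgeR adjusted p 4.02e-05), Col3a1 by -0.98 ± 0.21, Col1a2 by -0.84 ± 0.15 and Col5a1 by -0.83 ± 0.19. Thbs1 differed by -1.12 ± 0.38 and Fbn2 by -1.09 ± 0.38 (edgeR adjusted p 0.0222 and 0.0247). Loxl1 had 103, 127 and 161 CPM under AO and 149.9, 225 and 310.2 CPM under pI:pC, a difference of -0.77 ± 0.10 (edgeR adjusted p 1.694e-06). Lox, Sparc, Loxl3, Timp2, Bgn and Fn1 made up the rest, between -0.56 and -0.35. Without reference to any fit, 16 members were lower under AO than under pI:pC in all 10 lines, against 13.6% of all genes. With the block Mmp3 differed by -1.37 ± 0.21, and the 5 members called in neither fit were Col5a2, Col12a1, Fbln5, Dcn and Lum.

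Within a genotype, where each comparison rests on 3 or 4 lines, fewer members passed. Without the block AO lowered 3 members in hom lines, none in het lines and none in WT lines by edgeR's test, against 5.73%, 4.95% and 3.43% of all genes called lower. At an unadjusted p under 0.05 there were 8, 3 and 4 members. The hom members were Col3a1 (-1.33 ± 0.39, edgeR adjusted p 0.0242), Col1a2 (-0.90 ± 0.28, edgeR adjusted p 0.0325) and Mmp14 (-0.56 ± 0.18, edgeR adjusted p 0.0448), and no member passed without any 1 of the hom lines. Col3a1 had 257, 413 and 213 CPM under AO in E1.4, E2.2 and E2.9, the hom lines, against 699, 1074 and 452 CPM in the same lines untreated. In WT cells it had 129.2, 299.5 and 339 CPM under AO for E1.5, E2.1 and then E2.7, against 363, 647 and 599.9 CPM untreated. With the block AO lowered 21 members in hom, 13 in het and 11 in WT lines, against 15%, 14.6% and 11.7% of all genes. For pI:pC the unblocked fit called Loxl1 in WT lines (0.67 ± 0.18, edgeR adjusted p 0.0449; 1.29% of all genes were called higher) and no member in het or hom lines, where 2.24% and 0.554% of all genes were called higher and 2 and 3 members had an unadjusted p under 0.05. With the block, pI:pC raised 13 members in hom, 9 in het and 4 in WT lines, against 5.71%, 8.81% and 7.53% of all genes, and lowered 1 member in het lines, where 8.97% of all genes fell. These unequal counts are not a test of a difference between genotypes. The counts at an unadjusted p have no share of all genes beside them and are not a result about the members.

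That test was the interaction of genotype and treatment, and no member passed it. Without the block, no member had an unadjusted p under 0.05 in the difference between hom and WT responses to AO or pI:pC. With the block 3 and 1 members had one, with none at an adjusted p under 0.05. The share of all genes at that unadjusted threshold is not given here, so these counts are not a result about the members. The smallest p for the AO response belonged to Col1a1, at -0.39 ± 0.43 for hom minus WT (edgeR adjusted p 1.0), and for the pI:pC response to Fn1, at 0.27 ± 0.29 (edgeR adjusted p 0.9999). Next by p came Fbn1 and Col5a1 for AO, at -0.34 ± 0.38 and -0.40 ± 0.49, and Fbn1 and Col8a1 for pI:pC, at 0.32 ± 0.38 and 0.35 ± 0.54. Of all genes, 0.0% passed either interaction with or without the block, and the SEs are as large as many of the treatment changes given above.

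Between genotypes at a fixed treatment the member with the smallest p in hom against WT was Loxl3 each time. Loxl3, which acts on collagen and elastin as the other lysyl oxidases do, had 16.7 (E1.4), 34.9 (E2.2) and 34.6 (E2.9) CPM in hom lines under AO, against 68.2 (E1.5), 60.6 (E2.1) and 62.2 (E2.7) CPM in WT lines. Under pI:pC it had 26.7, 51.0 and 45.4 CPM in hom lines, against 93.6, 90.2 and 96.3 CPM in WT lines. Untreated, the values were 31.3, 44.8 and 53.0 CPM in hom lines and 89.3, 80.8 and 84.1 CPM in WT lines. The hom and WT lines did not overlap under any treatment, and het lines had 45.9 to 116 CPM over the 3 treatments. Of all genes, 5.19%, 5.46% and 4.78% were lower in hom than in WT lines without overlap under AO, under pI:pC and untreated. Loxl3 was the member that did so under all 3 treatments, which rest on the same lines, as did 1.14% of all genes. Since 1 or 2 of 37 members per treatment is near the share of all genes, these counts show nothing particular to the members. Bgn was lower in hom lines without overlap under AO alone, Timp1 was higher under AO alone and Thbs2 under pI:pC alone, while 3.93% of all genes were higher without overlap under AO, 5.24% under pI:pC and 4.6% untreated.

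**Figure D4:**
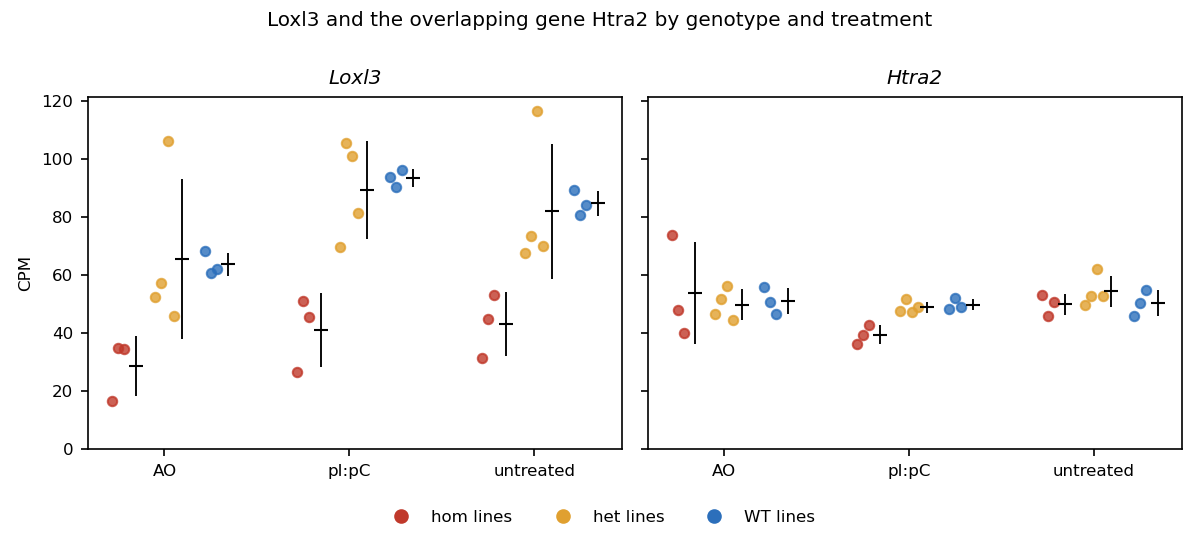
CPM of Loxl3 (left) and of Htra2 (right), whose exons overlap it on the other strand, in hom, het and WT lines under AO, under pI:pC and untreated, with 1 point per line and the mean ± SD beside each group. The hom points of Loxl3 lie below all WT points in each treatment, while those of Htra2 overlap the WT points under AO and untreated and lie below them under pI:pC.

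The log2 difference of Loxl3 between hom and WT lines was -1.14 ± 0.30 under AO, -1.19 ± 0.30 under pI:pC and -0.98 ± 0.29 untreated, with edgeR adjusted p of 0.418, 0.0958 and 0.976 over all genes. The share of all genes called in these comparisons was 0.0%, 0.254% and 0.015%. No member thus passed in these comparisons by edgeR's test, where Loxl3 was the 1 member with an unadjusted p under 0.05 in each. After Loxl3 the smallest p belonged to Fn1 (-0.36 ± 0.20) and Vcan (-0.59 ± 0.36) under AO, to Col1a1 (0.54 ± 0.30) and Fbn1 (0.39 ± 0.27) under pI:pC, and to Col1a1 (0.46 ± 0.30) and Sparc (0.22 ± 0.18) untreated. DESeq2 called Loxl3 under pI:pC (adjusted p 0.0167, with 0.401% of all genes called), and the edgeR adjusted p for pI:pC was 0.0368 with the prefix of the line names as a covariate and 0.0131 without line E2.6. Over 18 settings for pI:pC the adjusted p ran from 0.0131 to 0.456, with 5 calls. Loxl3 lies at chr6:83034173-83052562 on the plus strand of mm10, and its exons overlap those of Htra2, a mitochondrial protease gene on the other strand with 73.7% as many counts over the 36 libraries. Reads of the overlap could have been shared between the genes if strand was not used in counting, and the strand setting is not given in the sources used here. Htra2 had 53.9 ± 17.6 CPM in hom and 51.1 ± 4.60 CPM in WT lines under AO, 39.5 ± 3.19 and 49.8 ± 2.01 CPM under pI:pC, and 49.9 ± 3.61 and 50.3 ± 4.61 CPM untreated (SD, n = 3 each). Htra2 too was lower in hom than in WT lines without overlap under pI:pC, at 36.4 to 42.7 CPM in hom lines and 48.4 to 52.1 CPM in WT lines, and it overlapped under the other treatments.

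In het against WT lines no member passed by edgeR's test. Thbs1 under AO was the 1 member with an unadjusted p under 0.05, at 1.48 ± 0.67 (edgeR adjusted p 1.0), with 1 line apart from the rest, followed by Thbs2 (0.55 ± 0.35) and Timp2 (0.41 ± 0.26). Thbs1 had 569 (E1.3), 618 (E2.5), 746 (E2.8) and, far above these, 5264 (E2.6) CPM in het lines under AO, against 671 (E1.5), 593 (E2.1) and 667 (E2.7) CPM in WT lines, so that the het lines other than E2.6 lay on both sides of WT. The share of all genes called in het against WT lines was 0.0% under each treatment. No het against WT comparison under pI:pC or untreated had a member at an unadjusted p under 0.05, and DESeq2 called none of these either. The members with the smallest p there were Loxl1 (-0.21 ± 0.17), Col1a2 (-0.31 ± 0.26) and Timp2 (0.30 ± 0.26) under pI:pC, and Lum (2.05 ± 1.44), Thbs1 (0.86 ± 0.66) and Timp2 (0.34 ± 0.26) untreated.

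Several members varied widely from line to line. Over the 10 untreated lines the SD of log2(CPM + 0.5) was 1.89 for Dcn, 1.31 for Eln, 1.28 for Mmp3, 0.94 for Lum, 0.93 for Col6a3 and 0.84 for Col12a1. Dcn ran from 0.902 CPM in het line E1.3 to 51.8 CPM in het line E2.5, and Eln from 0.635 CPM in WT line E1.5 to 15.9 CPM in hom line E1.4. Col6a3 ran from 62.3 CPM in E1.4 to 392.5 CPM in E2.6. At the steady end were Mmp14 (0.16), Loxl1 (0.17), Col5a2 (0.18), Bgn (0.20), Fn1 (0.20) and Sparc (0.22).

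Part of this spread followed the prefix of the line names (E1 or E2), which the labels do not explain. The E1 lines are hom E1.4, het E1.3 and WT E1.5, so each genotype has 1. Of the 37 members, 13 were lower in all E1 than in all E2 lines under AO, 8 under pI:pC and 10 untreated, against 3.75%, 3.43% and 3.89% of all genes. Col12a1, Col6a1, Col6a2, Col6a3 and Mmp3 did so under all 3 treatments, as did 1.08% of all genes. Col12a1 had 175, 366 and 415 CPM in untreated lines E1.4, E1.3 and E1.5, against 682 to 1045 CPM in the 7 untreated E2 lines. Mmp2 was higher in all E1 than in all E2 lines under each treatment, as were 3.06%, 3.04% and 2.3% of all genes under AO, under pI:pC and untreated, and 0.195% under all 3. These members were chosen after their values were seen, and the split was not among the comparisons tested.

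Pairs of members that neighbour each other differed in how closely they moved. Across the 10 untreated lines, Pearson's r of log2 CPM was 0.99 for Col4a1 and Col4a2 and 0.99 for Col6a1 and Col6a2, which lie on chromosome 10 on the same strand. It was 0.50 for Dcn and Lum, also on chromosome 10, and 0.31 for Col3a1 and Col5a2 on chromosome 1. The points share library scaling, and the values are descriptions over 10 lines.

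Line E2.6 stood apart in its matrix genes, and its changes over all genes were weak as well. Over all genes its slope on the mean change of the other lines was 0.615 under AO and 0.57 under pI:pC. Its median member change was -0.0036 under AO and 0.0045 under pI:pC, against -0.64 to -0.19 and 0.21 to 0.49 in the other 9 lines. Under AO 22 of 37 members were lower than untreated in E2.6, against 29 to 34 in the other lines. The hom line E1.4 had the widest changes, described here after its values were seen. Its Fn1 was 3087 CPM under AO, 9282 CPM under pI:pC and 4444 CPM untreated. Its Fbn1 was 155 CPM under AO, 779 CPM under pI:pC and 365 CPM untreated, and its Timp1 ran the other way, with 239 CPM under AO, 126 CPM under pI:pC and 166 CPM untreated. Without E2.6 and E2.9, the lines with the most macrophage marker RNA, 11 members fell under AO without the block and 27 with it. Under pI:pC 2 members rose without the block, and 22 rose and 1 fell with it. Without lines E2.6 and E1.4, the line with the largest median change, 11 members fell under AO without the block, and 28 fell and 1 rose with it. Under pI:pC 7 rose without the block, and 25 rose and 3 fell with it. The shares of all genes called in these refits are not given here. The lines left out were chosen after their values were seen, so these counts add no support.

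Genes that work with the members were counted from lists of related functions, beside the shares of all genes given above (without the block 16.7% lower and 17% higher under AO, 9.91% higher and 11.8% lower under pI:pC). Of 23 genes of collagen processing and secretion, AO lowered 3 and raised 1 without the block and lowered 12 and raised 1 with it, where 26.8% of all genes were lower. The 3 of 23 are a smaller share than that of all genes. Pcolce, which speeds the trimming of procollagen, had 198 ± 34.02 CPM under AO and 270.1 ± 42.7 CPM untreated (SD, n = 10 lines each), a change of -0.45 ± 0.12 (edgeR adjusted p 0.00449). Under pI:pC 3 of these genes rose and 1 fell. Plod3, a collagen lysyl hydroxylase, rose by 0.28 ± 0.09 and P4hb, a subunit of prolyl hydroxylase, by 0.21 ± 0.07, while Mia3, which helps export collagen from the endoplasmic reticulum, had 60.6 ± 6.29 CPM under pI:pC and 83.5 ± 5.97 CPM untreated, a change of -0.46 ± 0.05 (edgeR adjusted p 1.214e-06). Of 13 other collagen genes tested none passed without the block under either treatment, while 6 fell under AO with it.

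Proteases outside the member list fell with AO too. Of 19 tested, 7 fell and 1 rose without the block. Plau, the gene of urokinase, had 20.6 ± 8.93 CPM under AO and 52.8 ± 12.8 CPM untreated, a change of -1.38 ± 0.20 (edgeR adjusted p 7.031e-06), whereas Plaur, the gene of its receptor, changed by 0.72 ± 0.18 (edgeR adjusted p 0.00251). Mmp11 fell under both treatments, by 0.98 on the log2 scale under AO and by 0.63 under pI:pC. Adamts1, a protease of versican, rose under pI:pC by 0.55 ± 0.17, with 287 ± 101 CPM under pI:pC and 197 ± 38.4 CPM untreated.

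Of 19 genes of the TGF-beta pathway, a main inducer of collagen genes, 5 rose and 4 fell under AO and 2 rose under pI:pC without the block, where 17% and 16.7% of all genes rose and fell under AO and 9.91% rose under pI:pC. Tgfb3, the gene of a ligand, had 58.8 ± 26.03 CPM under AO and 153 ± 39.8 CPM untreated, a change of -1.41 ± 0.22 (edgeR adjusted p 2.198e-05). Tgif1, the gene of a repressor of the pathway, changed by 0.90 ± 0.12 and Ccn1, a matricellular protein gene, by 0.64 ± 0.10 under AO. Under pI:pC the ligand gene Tgfb2 changed by 0.57 ± 0.15 and Smad3, the gene of a signal transducer, by 0.49 ± 0.15. Of 11 basement membrane genes 2 fell under AO, about the 16.7% of all genes, and Hspg2, the gene of perlecan, fell under AO by 0.42 on the log2 scale and rose under pI:pC by 0.49 ± 0.14. Of 7 genes for hyaluronan and its binding proteins 3 fell under AO, among them Has2, the gene of the main hyaluronan synthase of fibroblasts, at -0.76 ± 0.29. Of 19 matrix receptor genes 6 fell and 1 rose under AO, the rise being Ddr2, a collagen receptor kinase, at 0.58 ± 0.13, and under pI:pC Sdc4, a heparan sulfate receptor gene, rose by 0.67 ± 0.17.

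High was set against low cell density in WT line E1.5 in a fit of its 9 libraries with terms for treatment and density. Density has 1 library per treatment, so the test takes the spread of the 9 libraries around these terms as its error, and all come from 1 line. Of 35 members tested, 14 were higher and 8 lower at high density by edgeR's test, which is 40.0% and 22.9% of members, against 8.61% and 8.24% of all 12491 genes tested. Without Eln and Dcn, which reached at most 7 counts outside the high-density libraries and so passed the filter on low counts through these libraries alone, 12 were higher and 8 lower of 33. Lum and Mmp3 did not pass the filter on low counts, with counts of 3 to 19 in the 3 high-density libraries and 0 to 2 in the 3 low-density libraries.

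**Figure D5:**
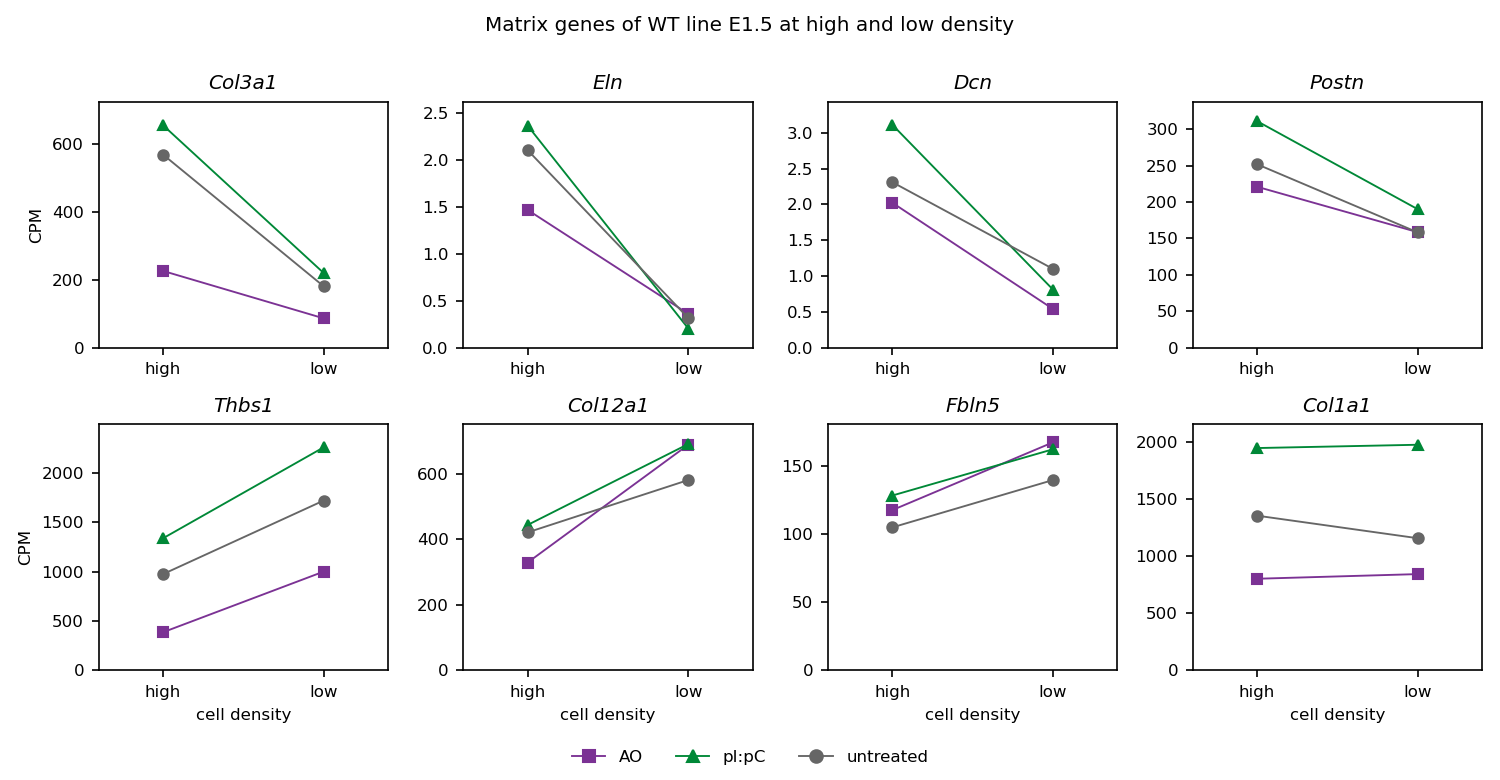
CPM of 8 matrix genes in WT line E1.5 at high density (left of each panel) and at low density (right), with 1 point per library and lines joining libraries of the same treatment. Col3a1 and Postn were higher at high density in all 3 treatments, Thbs1, Col12a1 and Fbln5 were lower in all 3, and Col1a1 did not pass, with a change of 0.05. Eln and Dcn passed the filter on low counts through the high-density libraries alone, so their direction carries no weight.

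Col3a1 was the abundant member that differed most. It had 225, 654 and 568 CPM at high density under AO, under pI:pC and untreated, against 85.9, 219 and 180.1 CPM at low density, a log2 change of 1.55 ± 0.10 (edgeR adjusted p 4.546e-07). Eln had 29, 38 and 51 counts at high density, against 2, 1 and 2 counts at low density in libraries of lower depth, a fitted log2 change of 2.69 ± 0.49. Dcn had 40, 50 and 56 counts at high density and 3, 4 and 7 counts at low density, a fitted change of 1.57 ± 0.45. The calls of both rest on a filter that the high-density libraries decided, and neither gene was tested once the libraries were thinned to equal depth. Eln was also not tested without the pI:pC libraries. The call of Dcn was lost with DESeq2 (adjusted p 0.158) and in each fit without 1 treatment (edgeR adjusted p 0.0717 without AO, 0.18 without pI:pC, 0.0732 without the untreated libraries). The sizes for these low genes rest on few counts.

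Postn, the gene of periostin, a protein of dense connective tissue, had 221, 311.5 and 252 CPM at high density under AO, under pI:pC and untreated, against 159, 190.3 and 158 CPM at low density, a change of 0.62 ± 0.08. Col6a3, Mmp2 and Col6a1 changed by 0.46, 0.45 and 0.40, and Thbs2, Fbn2, Loxl3, Loxl2, Col6a2, Col1a2 and Mmp14 by 0.38 to 0.18. Thbs1 had 384, 1339 and 975 CPM at high density, against 1001, 2264 and 1723 CPM at low density, and changed by -0.98 ± 0.10 (edgeR adjusted p 2.698e-05). Col12a1 had 329, 443 and 421 CPM at high and 689, 691 and 581 CPM at low density, a change of -0.71 ± 0.11 (edgeR adjusted p 0.0007718). Fbln5, Timp1, Timp3, Fbln2, Col4a1 and Col5a2 were the other members lower at high density, between -0.42 and -0.17. In all 3 treatments 15 of the 35 tested members were higher and 11 lower at high than at low density. The shares of all genes were 25.6% and 22.6%. The 15 include Eln and Dcn, which passed the filter on low counts through the high-density libraries alone, so their direction carries no weight.

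Fibrillar collagens did not move together with density, since Col3a1 and Col1a2 were higher, Col5a2 was lower, and Col1a1 and Col5a1 did not pass. Among related genes, Tgfbi, a matrix protein gene induced by TGF-beta, changed by 1.75 ± 0.08 and Lama4, the gene of a laminin chain, by 2.1 ± 0.19, while Ccn2, a gene of a matricellular protein, changed by -0.97 ± 0.09. Smooth muscle markers summed to 1543, 2359 and 2084 CPM at high density under AO, under pI:pC and untreated, against 2537, 4459 and 3431 CPM at low density. Fibroblast markers summed to 1648, 2838 and 2142 CPM at high and 2184, 4279 and 2792 CPM at low density, and the part of either shift in these results was not tested. Depth differed as well, and with every library thinned to 5213075 counts 19 members passed, 11 higher and 8 lower. Leaving out the untreated libraries left 10 members and leaving out the pI:pC libraries left 11. How many of all genes passed with thinned counts or without a treatment is not given here. These counts are therefore not a result about the members.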

How the data were processed

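The deposited tables hold expected counts per gene for 36 libraries, 1 table each, which the authors made with STAR and RSEM on mm10, per the submitters' processing notes. Versions: not given in the sources used here, nor is the strand setting. Reads that fit several genes are shared out by RSEM, 6.01% to 13.3% of a library's values were not whole, and expected counts were rounded before testing. Per the labels' protocols, libraries were made from 500 ng of total RNA with the TruSeq Stranded mRNA kit. Of 49585 gene identifiers, 49326 matched GENCODE vM21 (GRCm38).

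Genes were tested with edgeR 4.0.16 (R 4.3.3, limma 3.58.1): quasi-likelihood F tests, TMM factors and filterByExpr (minimum count 10, total 15) in 1 fit of 9 groups, with Benjamini-Hochberg adjustment over all 13364 genes and a threshold of 0.05. The density fit tested 12491 genes. DESeq2 1.42.0, RLE factors, no filter, a fit of just the compared groups, the prefix of the line names as a covariate, thinned counts and each line left out were alternatives. Line as a block was the other fit. Libraries that carry the same line name deviated together (Pearson's r 0.342 to 0.765 over 30 pairs), so its values stand beside the main ones where calls differ. Replicates differed by more than sampling noise (chi-square per degree of freedom 5.61 to 65.8). Nothing says how far lines stem from separate embryos, so p-values measure the spread between these samples.

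CPM values use the TMM-scaled totals, and changes per line use a pseudocount of 0.5 CPM. Levels per kilobase use the merged length of all GENCODE exons of a gene. The members and lists were chosen with earlier results of these data known. Named were members passing a treatment comparison in either fit, the 3 smallest p where none passed, the extremes of line spread, and the leading genes of related lists. The scripts were tested on simulated data. Precision is limited by 3 or 4 lines per group, and by 1 library per density and treatment.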

Additional observations from a re-analysis of the deposited data

Results flagged for a closer look

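In 7 of 111 het groups tested (37 members, 3 treatments, 4 lines), the gap between 1 line and the nearest other, divided by the range, passed Dixon's 95% limit for 4 samples. Chance passes about 1 in 20 groups, and 7 of 111 is close to that rate. The groups are not independent, since the treatments share lines, and the share over all genes is not given here. Line E2.6 was the far line in 5 of the 7. Thbs1 had a ratio of 0.9624 under AO, where E2.6 had 5264 CPM and the other het lines 569 to 746 CPM. Under pI:pC its ratio was 0.914, with 4945 CPM in E2.6 and 1487 to 1785 CPM in the others. Untreated, the ratio was 0.9507, with 5242 CPM in E2.6 and 1136 to 1339 CPM in the others. Lum under AO had a ratio of 0.9638, with 3.69 CPM in E2.6 and 0.46 to 0.577 CPM in the others, and untreated Loxl3 one of 0.876, with 116 CPM in E2.6 and 67.5 to 73.6 CPM in the others. Line E2.8 was the far line under AO for Fbn2 (ratio 0.89, 139 CPM against 37.5 to 48.6 CPM) and for Fn1 (ratio 0.9017, 5404 CPM against 6195 to 6282 CPM).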

How the results depend on the processing

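For members called in a treatment comparison over the genotypes or in the density comparison, by either fit, 1368 values under the alternatives kept direction and side of the threshold, 85 gained and 80 lost the call, and 0 changed direction. Members called by neither fit did change direction, in 25 values for AO, 8 for pI:pC, 2 for AO against pI:pC and 5 for density, where Col1a1, Fbn1, Fn1, Lox and Tnc crossed 0 and reached a log2 size of at most 0.065. With the line as a replicate block the counts of members called were 26 for AO (8 without), 22 for pI:pC (3) and 32 for AO against pI:pC (14). Within genotypes the block gave, for AO, 21 in hom (3), 13 in het (0) and 11 in WT lines (0), and for pI:pC 13 in hom (0), 10 in het (0) and 4 in WT lines (1). The block leaves more of the spread between lines out of the error, and the calls it adds were not tested in other lines. Without a filter pI:pC had 1 member over the 3 genotypes and 0 in WT lines. With only the compared groups in the fit, AO had 0 in hom, 1 in het and 3 in WT lines. Leaving out 1 line gave 1 to 5 for pI:pC, 0 to 4 for AO in hom, 0 to 1 for AO in het, 0 to 1 for AO in WT, 0 to 1 for pI:pC in WT and 0 to 1 for hom against WT under pI:pC. That last count, 0 in the report, was 1 (Loxl3) with DESeq2, with the line name prefix as covariate, and without lines E2.6 and E2.9 or E1.4 and E2.6. The last 2 settings and the blocked fits without a line were chosen after seeing the data. Without E2.6 and E2.9 AO had 1 member in each genotype. Without E1.4 and E2.6 pI:pC had 7 members over the genotypes, 3 in het and 1 in hom lines, and AO 3 in het and 2 in WT lines. High against low density, with 22, had 10 without the untreated and 11 without the pI:pC libraries. The cause of these differences was not tested, and the shares of all genes called under these alternatives are not given here. No paired analysis was possible for genotype because each line has 1 genotype, and the density fit already pairs high and low libraries through its treatment term. Depth limits Lum, Mmp3, Eln and Dcn most, the lowest members.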
